A study of Mus musculus with 11 samples.

Results

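Genes that encode the enzymes writing and erasing methyl groups and removing acetyl groups on histones, together with the enzymes writing and oxidizing DNA methylation, were examined in BV2 microglia treated with amino-terminal fragments of apolipoprotein E. They were chosen by symbol alone, as the Kdm, Kmt, Hdac and Dnmt genes followed by a number, Sirt1 to Sirt7 and Tet1 to Tet3, and 50 of the 36529 listed genes met the rule. Several large changes were shared by both fragments, as Kdm4a, Tet2 and Dnmt3l rose while Hdac5, Dnmt1, Kdm2b and Sirt3 fell. Hdac7 and Kdm3a fell with nApoE4 by more than with nApoE3, and Hdac9 fell with nApoE3 by more than with nApoE4. Untreated levels of Hdac7, Kdm3a and Hdac9 also differed, being 7.24-fold, 1.77-fold and 1.89-fold higher in the nApoE4 experiment than in the nApoE3 experiment. At an adjusted p under 0.05, 23 of the 46 genes tested passed with nApoE4, beside 57.2% of all tested genes. With nApoE3, 36 of the 47 tested passed, beside 67.7% of all tested genes. These 36 include Tet1, which passed the low-count filter only through its higher group.

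BV2 is a transformed mouse microglial line (labelled strain C57BL/6), and all 11 samples were total RNA from these cells after 5 h. One experiment compared 3 samples that received 25 µg/ml of the nApoE4 fragment (residues 1–151) with 3 untreated samples labelled ControlA, and the other compared 2 samples that received the same amount of the nApoE3 fragment (residues 1–151) with 3 untreated samples labelled ControlB. Both fragments carried a polyhistidine tag, and the labels name no tagged control protein. The labels name a PBS vehicle for the controls while the study's methods name conditioned medium. No sample received both fragments or came from both experiments, so fragment and experiment cannot be told apart in any difference between them. Nothing in the labels states that replicates were separate cultures, and the p-values measure the spread between these samples.

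Chromatin enzymes set how tightly DNA is packed and which genes can be read. Acetylated histones mark active genes and histone deacetylases remove the acetyl groups. These belong to the Hdac1 to Hdac11 and NAD-dependent sirtuin families, some of whose members act mainly on other targets. Lysine methyltransferases (Kmt) and demethylases (Kdm) act on single residues, with methylated H3K4 found at active promoters and methylated H3K9, H3K27 and H4K20 linked to silencing, while DNA methyltransferases (Dnmt) methylate cytosine and the Tet enzymes oxidize the mark toward its removal. In macrophages and microglia, several of these enzymes, Kdm6b and Hdac7 among them, are known as parts of inflammatory responses.

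The start sites of the 4 genes with the largest average response, among those passing with both fragments in the same direction, are shown because these genes carry the shared response. Each sequence is a RefSeq promoter of GRCm38.p6 that runs 5′ to 3′ on the gene's strand from 250 bases before to 50 bases after the start. Dnmt3l lies at chr10:78042037-78042336 on the plus strand, Kdm4a at chr4:118179994-118180293, Hdac5 at chr11:102230123-102230422 and Tet2 at chr3:133544341-133544640, the last 3 on the minus strand. Dnmt3l had 3 listed promoters and the one at its annotated 5′ end is shown. Capitals mark matches to motifs that were searched on both strands.
Dnmt3l: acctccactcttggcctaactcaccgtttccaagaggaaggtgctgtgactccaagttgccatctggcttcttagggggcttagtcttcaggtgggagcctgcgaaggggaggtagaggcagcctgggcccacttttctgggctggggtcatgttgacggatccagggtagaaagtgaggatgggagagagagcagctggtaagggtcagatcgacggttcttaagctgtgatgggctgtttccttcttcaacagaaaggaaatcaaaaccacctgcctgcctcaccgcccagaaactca
Kdm4a: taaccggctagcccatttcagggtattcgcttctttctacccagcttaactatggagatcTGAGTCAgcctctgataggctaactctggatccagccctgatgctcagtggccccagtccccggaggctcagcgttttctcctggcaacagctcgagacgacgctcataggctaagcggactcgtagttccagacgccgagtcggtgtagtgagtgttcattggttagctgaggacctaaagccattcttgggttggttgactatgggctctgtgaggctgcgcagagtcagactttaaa
Hdac5: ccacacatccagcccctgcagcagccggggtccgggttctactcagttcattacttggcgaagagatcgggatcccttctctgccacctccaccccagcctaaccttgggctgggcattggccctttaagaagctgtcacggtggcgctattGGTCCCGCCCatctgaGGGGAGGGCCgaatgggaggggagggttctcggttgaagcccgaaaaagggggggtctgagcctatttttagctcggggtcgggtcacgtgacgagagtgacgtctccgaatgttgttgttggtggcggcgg
Tet2: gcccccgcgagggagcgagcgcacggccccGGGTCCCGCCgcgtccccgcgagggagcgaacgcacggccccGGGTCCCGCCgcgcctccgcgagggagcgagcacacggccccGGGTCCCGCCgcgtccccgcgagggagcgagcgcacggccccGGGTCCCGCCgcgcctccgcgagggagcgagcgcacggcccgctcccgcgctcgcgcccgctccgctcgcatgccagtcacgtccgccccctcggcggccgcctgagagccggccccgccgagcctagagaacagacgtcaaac
The letters searched were GGGNNNNNCC for NF-kB, TGANTCA for AP-1, GAAANNGAAA for the interferon response element, TGACGTCA for the cyclic AMP response element and TTTCCCGC for E2F. The 4 promoters held no motif in common. Kdm4a had 1 AP-1 match, TGAGTCA, 190 bases before the start, and 7.81% of all 32851 listed promoters held that motif. Tet2 had 4 copies of GGGTCCCGCC within a repeated unit and Hdac5 had 2 matches to the same NF-kB letters, which 50.8% of all promoters held. Dnmt3l matched none of the 5 motifs. Base composition also varied, with 54.7% GC and 6 CpG in the Dnmt3l window and 81.3% GC and 57 CpG in the Tet2 window. Promoters were listed for 40 of the 50 genes (60 promoters), of which 71.7% held the NF-kB letters, 11.7% the AP-1 letters, 1.67% the E2F letters and 0% the other two. A match describes letters and not a bound site.

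The samples held 39732710 to 44162511 counts on genes in the nApoE4 experiment and 55809688 to 69768666 in the nApoE3 experiment, and 3 counts, taken as the floor for detection, corresponded to 0.0425 to 0.0756 CPM, the count of a gene scaled to library size. Levels below are CPM after TMM scaling over the 11 samples and are listed in the order of the replicate numbers. ControlA replicate 2 stood apart from the other controls. Its counts differed from those of ControlA replicates 1 and 3 with a chi-square per degree of freedom of 25.8 and 47.9, against 7.85 between those 2 replicates and 3.15 to 12.05 within the other groups. The enzymes took 0.279% of its counts, compared with 0.336% and 0.356% in the other ControlA samples, and it was the lowest ControlA sample for 33 of 46 genes, among them 21 of the 23 with longer transcripts and 12 of the 23 with shorter ones. Values without it are given where they change a result. Of 13 microglia and macrophage markers, P2ry12 was at or under the floor and Aif1 and Cx3cr1 were under 1 CPM. The summed level was 3341 to 3695 CPM in ControlA and 3155 to 3235 with nApoE4. It was 2325 to 2424 CPM in ControlB and 2587 to 2591 with nApoE3. Trem2 was at 60.5 CPM in ControlA replicate 1 and at 0.372 to 5.29 in the other samples. Mog, Mobp and Olig2 of oligodendrocytes, Cldn5 of endothelium, Aqp4 of astrocytes and Col3a1, Dcn and Lum of fibroblasts were at or under the floor. The summed neuronal list was 5.32 to 6.39 CPM with nApoE4, 1.97 to 2.51 in ControlA, 1.15 to 1.52 in ControlB and 1.495 to 1.506 with nApoE3. In that list, Tubb3 was at 5.04 to 6.20 CPM with nApoE4 and 1.78 to 2.395 in ControlA. The other neuronal genes were under 1 CPM. The astrocyte list, also low, was 0.958 to 1.28 CPM with nApoE4 and 0.517 to 0.669 in ControlA, and 1.56 to 1.74 with nApoE3 and 0.485 to 0.781 in ControlB. Of the astrocyte genes, Slc1a3 alone reached 1 CPM in any sample. Between the experiments, the endothelial list was 49.8 to 58.2 CPM in ControlA and 96.03 to 100.1 in ControlB, and the oligodendrocyte list was 11.3 to 14.3 and 24.0 to 24.6. Flt1 made most of the endothelial list (48.5 to 56.9 CPM in ControlA, 94.9 to 98.6 in ControlB). Mbp made most of the oligodendrocyte list (9.06 to 11.4 CPM in ControlA, 21.65 to 23.0 in ControlB). The fibroblast list was under 1 CPM in every sample. The part of these lists in any result was not tested.

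In untreated cells, the enzymes spanned a wide range of levels per length of exon. Kmt5a, the methyltransferase that places the first methyl group on H4K20, was highest in ControlA at 58.4 CPM per kb, followed by Dnmt1 at 54.6, Hdac1 at 38.0, Hdac3 at 35.8 and Kdm5c at 29.5. The highest of each remaining family were Sirt7 at 24.1 CPM per kb, Kdm4a at 23.7, Hdac5 at 23.1, Kdm6a at 14.1, Hdac10 at 12.9, Kmt2b at 9.56 and Tet3 at 8.84. At the low end, Kdm4d was at 0.102 and Tet1 at 0.0093 CPM per kb in ControlA. Kdm5d, with 1 count in 1 of the 11 samples, and Dnmt3aos, a noncoding transcript antisense to Dnmt3a with 0 counts, were not detected. Hdac11 had 0 counts in every ControlA sample, 2, 5 and 3 counts with nApoE4, 0, 2 and 0 in ControlB and 1 and 1 with nApoE3, and was too low to test.

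**Figure D1:**
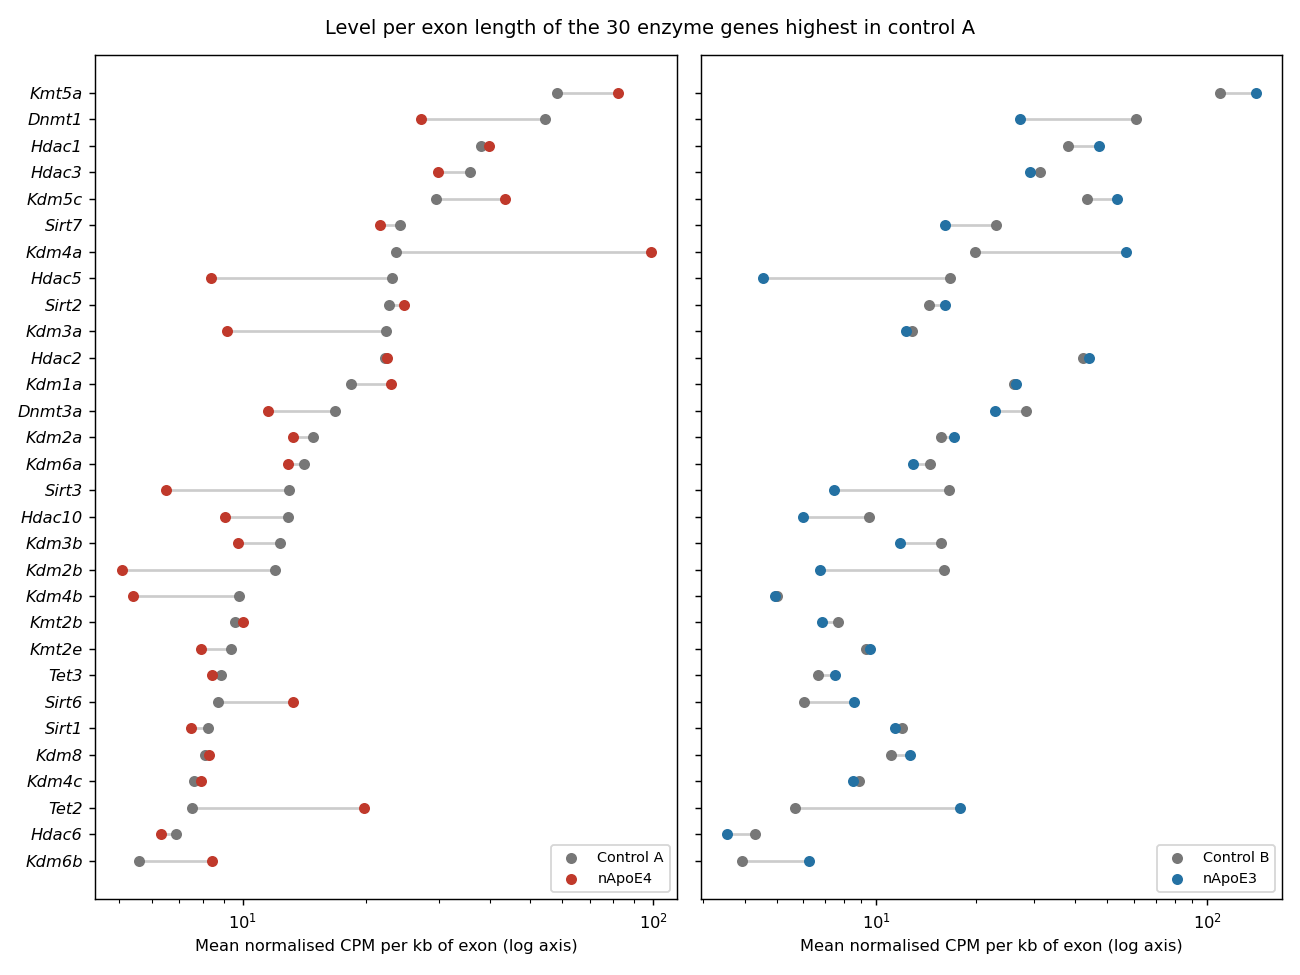
Mean level in CPM per kb of exon (log axis) in each of the 4 groups for the 30 enzyme genes with the highest level per kb in ControlA, with a panel per experiment, grey points for untreated cells and coloured points for treated cells. Kmt5a and Dnmt1 lead in ControlA at 58.4 and 54.6 CPM per kb, and the Kdm4a points of the treated groups (98.5 with nApoE4, 56.8 with nApoE3) lie to the right of its controls (23.7 and 19.9).

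The tests compared each fragment with its own controls by edgeR's quasi-likelihood test over all genes, with Benjamini-Hochberg adjustment at 0.05, and changes are log2 fold changes with an approximate standard error. With nApoE4, 10 of 46 enzymes rose (21.7%, beside 28.6% of all tested genes) and 13 fell (28.3%, beside 28.6%). With nApoE3, 15 of 47 rose (31.9%, beside 33.1%, and 14 leaving out Tet1, which passed the low-count filter only through its higher group) and 21 fell (44.7%, beside 34.6%). At a fold change above 1.5 the counts were 7 higher and 7 lower with nApoE4, when 16% and 14.5% of all genes passed (30.4% in either direction). With nApoE3 they were 5 higher, Tet1 among them, and 8 lower, when 14.7% and 13.7% did (28.4% in either direction). Without ControlA replicate 2, 12 enzymes rose and 19 fell with nApoE4, when 4404 of all 14561 tested genes rose and 4423 fell. Above 2-fold, 9 of 46 passed with nApoE4 (17.7% of all genes), 4 higher (10.2%) and 5 lower (7.46%), and 9 of 47 with nApoE3 (16.2% of all genes), 4 higher, Tet1 among them (9.6%), and 5 lower (6.57%). At the adjusted p alone, the share that fell with nApoE3 lay above that of all genes, and the share that rose with nApoE4 lay below it. The number that fell with nApoE4 depended on ControlA replicate 2, at 13 with it and 19 without it. These departures from the shares of all genes were not tested. The median change of the enzymes was -0.02 with nApoE4 and -0.11 with nApoE3, and that of all tested genes was 0.0013 and -0.0026.

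**Figure D2:**
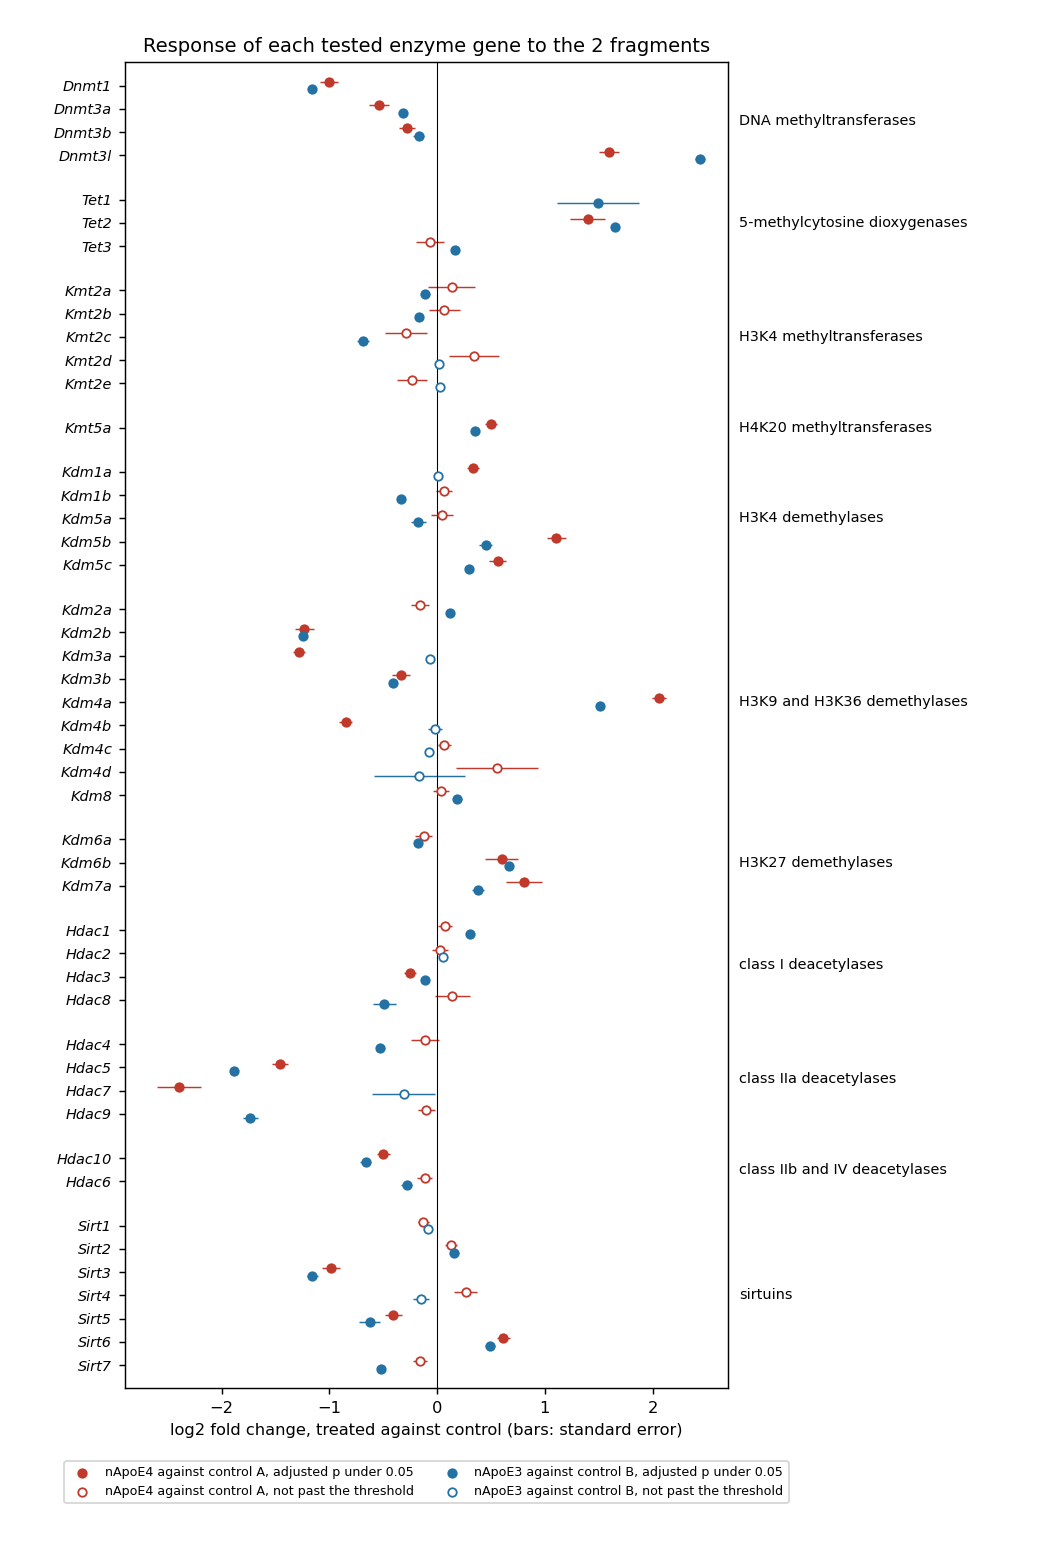
Log2 fold change of each tested enzyme gene against its own untreated controls with nApoE4 (46 genes) and nApoE3 (47 genes), grouped by family, with bars for the standard error and filled points for an adjusted p under 0.05. Values run from -2.40 (Hdac7) to 2.06 (Kdm4a) with nApoE4 and from -1.88 (Hdac5) to 2.44 (Dnmt3l) with nApoE3.

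Among the 4 DNA methyltransferase genes tested, all 3 catalytic enzymes fell with both fragments (beside 28.6% of all tested genes with nApoE4 and 34.6% with nApoE3). Dnmt1, the maintenance enzyme that copies methylation onto newly made DNA, was at 355, 303 and 376 CPM in ControlA and at 174, 174 and 165 with nApoE4. It was at 381, 386 and 382 CPM in ControlB and at 172 and 171 with nApoE3. Every treated sample lay below every control, the lowest control being ControlA replicate 2. The log2 change was -1.003 ± 0.085 with nApoE4 (edgeR adjusted p = 6.19e-06) and -1.16 ± 0.02 with nApoE3 (edgeR adjusted p = 2.99e-13). The de novo enzymes Dnmt3a and Dnmt3b fell by less. Dnmt3a changed by -0.54 ± 0.10 with nApoE4 and -0.32 ± 0.02 with nApoE3, and Dnmt3b by -0.28 ± 0.07 and -0.17 ± 0.05.

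Dnmt3l, which has no catalytic activity of its own and stimulates the de novo enzymes, moved the other way. Its level was 6.95, 7.94 and 6.88 CPM in ControlA and 22.3, 19.7 and 23.6 CPM with nApoE4. In the nApoE3 experiment it was 8.70, 8.01 and 8.53 CPM in ControlB and 45.9 in both treated samples. The groups did not overlap in either experiment, and the nApoE3 samples were the highest of all. The log2 change was 1.60 ± 0.10 with nApoE4 (edgeR adjusted p = 5.39e-07) and 2.44 ± 0.04 with nApoE3 (edgeR adjusted p = 2.21e-13), the latter a 5.42-fold rise. Per kb of exon, Dnmt3l went from 3.15 to 17.2 CPM with nApoE3 while Dnmt1 went from 60.8 to 27.2. The summed level of the 4 genes per kb was still lower in treated cells, at 49.9 compared with 77.8 CPM per kb for nApoE4 and 73.0 compared with 98.7 for nApoE3.

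Tet2, a dioxygenase that starts the removal of DNA methylation, rose with both fragments. It was at 77.0, 49.7 and 81.3 CPM in ControlA and at 169, 204 and 173 with nApoE4. ControlB held 53.5, 51.7 and 51.6 CPM and the nApoE3 samples 169.6 and 159.5. All treated samples were above all controls, and ControlA replicate 2 was the lowest sample of the series. The change was 1.40 ± 0.17 with nApoE4 (edgeR adjusted p = 6.48e-05) and 1.65 ± 0.03 with nApoE3 (edgeR adjusted p = 4.57e-13). Tet3 stood above Tet2 per kb in untreated cells (8.84 and 7.53 CPM per kb in ControlA) and below it after treatment with nApoE4 (8.40 and 19.8) or nApoE3 (7.51 and 17.9). Its own change was -0.07 ± 0.13 with nApoE4 (edgeR adjusted p = 0.677) and 0.17 ± 0.03 with nApoE3 (edgeR adjusted p = 0.00059). Tet1 was close to the floor, with 7, 1 and 10 counts in ControlA, 6, 13 and 5 with nApoE4, 8, 12 and 6 in ControlB and 20 and 25 with nApoE3. It passed the filter on low counts only in the nApoE3 experiment and there through the treated samples, which were the higher ones, so its fitted change of 1.49 ± 0.38 (edgeR adjusted p = 0.00412, or 1.30 and 0.0585 without nApoE3 replicate 2) is given as a description and supports no statement on the family.

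The demethylases of H3K9 and H3K36 moved in both directions. Kdm4a, which removes methyl groups from H3K9 and H3K36, was at 114, 121 and 124 CPM in ControlA and at 504, 507 and 483 with nApoE4. In ControlB it was at 101, 98.6 and 101 CPM and with nApoE3 at 296 and 278. Treated and untreated samples were far apart in both experiments, and the nApoE4 samples were the highest. The rise was 4.18-fold with nApoE4 (log2 2.06 ± 0.06, edgeR adjusted p = 5.87e-09) and 2.85-fold with nApoE3 (log2 1.51 ± 0.03, edgeR adjusted p = 3.94e-13), and Kdm4a became the highest of all 50 genes per kb with nApoE4, at 98.5 CPM per kb.

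Its close relative Kdm4b fell with nApoE4 alone at the threshold used. It was at 46.6, 43.1 and 44.4 CPM in ControlA and at 25.0, 25.6 and 23.5 with nApoE4, a change of -0.85 ± 0.06 (edgeR adjusted p = 2.21e-06). ControlB was already at 22.6, 23.1 and 23.1 CPM, and the nApoE3 samples, at 24.9 and 20.5, lay on either side of it (-0.02 ± 0.07, edgeR adjusted p = 0.788). Without nApoE3 replicate 1 the change was -0.17 (edgeR adjusted p = 0.0149), and without nApoE3 replicate 2 it was 0.11 (edgeR adjusted p = 0.0769). The nApoE4 samples were near the level of ControlB. Kdm4c changed by 0.07 ± 0.06 and -0.08 ± 0.04 and Kdm4d, at under 1 CPM, by 0.55 ± 0.38 and -0.17 ± 0.42, none past the threshold.

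Kdm3a, an H3K9 demethylase, gave a similar picture. It was at 113, 108 and 115 CPM in ControlA and at 46.8, 46.4 and 44.3 with nApoE4, without overlap. ControlB held 63.2, 63.7 and 65.6 CPM and the nApoE3 samples 63.6 and 59.5, which overlapped. The change was -1.28 ± 0.06 with nApoE4 (edgeR adjusted p = 6.43e-08) and -0.07 ± 0.04 with nApoE3 (edgeR adjusted p = 0.125), or -0.11 without nApoE3 replicate 1 (edgeR adjusted p = 0.0286). Its paralog Kdm3b fell with both, by 0.34 and 0.41 on the log2 scale.

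Kdm2b, which demethylates H3K36 and brings a Polycomb complex to CpG islands, fell alike in both experiments. It was at 70.2, 62.4 and 77.7 CPM in ControlA and at 31.6, 30.4 and 27.2 with nApoE4. The corresponding values were 95.1, 94.3 and 92.3 CPM in ControlB and 39.5 and 40.0 with nApoE3. Treated samples lay below all controls, with a change of -1.23 ± 0.09 (edgeR adjusted p = 2.38e-06) and -1.25 ± 0.03 (edgeR adjusted p = 3.5e-12). Other genes covered 16.2% of its exon bases, and among them A930024E05Rik on the other strand also fell (-2.01 with nApoE4 and -2.29 with nApoE3) while Rnf34 rose (0.39 and 0.95). The strand setting of the counting is not given in the sources used here. Kdm2a changed by -0.16 ± 0.08 with nApoE4 (edgeR adjusted p = 0.137) and rose by 0.12 ± 0.02 with nApoE3, and Kdm8 changed by 0.04 ± 0.07 with nApoE4 and rose by 0.19 ± 0.04 with nApoE3.

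Of the 5 tested demethylases of H3K4, 3 rose and 0 fell with nApoE4 (beside 28.6% of all tested genes in each direction), and 2 rose and 2 fell with nApoE3 (beside 33.1% and 34.6%). Kdm5b was at 10.4, 11.3 and 11.8 CPM in ControlA and at 21.7, 26.2 and 24.0 with nApoE4. It was at 8.43, 7.75 and 8.38 CPM in ControlB and at 11.48 and 10.98 with nApoE3. The groups did not overlap in either experiment. The change was 1.10 ± 0.09 with nApoE4 (edgeR adjusted p = 4.28e-06) and 0.45 ± 0.06 with nApoE3 (edgeR adjusted p = 4.4e-05). Kdm5c, the highest of this family per kb, rose by 0.56 ± 0.08 and 0.30 ± 0.02. Kdm1a, which acts within corepressor complexes, rose by 0.33 ± 0.06 with nApoE4 and changed by 0.01 ± 0.03 with nApoE3 (edgeR adjusted p = 0.748). Kdm1b changed by 0.06 ± 0.07 with nApoE4 and -0.34 ± 0.04 with nApoE3, and Kdm5a by 0.05 ± 0.10 and -0.17 ± 0.07, with both nApoE3 values past the threshold.

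Kdm6b, the H3K27 demethylase known from activated macrophages, was at 37.4, 28.9 and 45.2 CPM in ControlA and at 49.5, 64.3 and 54.4 with nApoE4. ControlB held 25.5, 26.7 and 26.4 CPM and the nApoE3 samples 42.2 and 41.3. Treated samples were above the controls of their own experiment, although the gap in the nApoE4 experiment, between 45.2 and 49.5 CPM, was narrow. The changes were 0.60 ± 0.15 (edgeR adjusted p = 0.00736) and 0.67 ± 0.04 (edgeR adjusted p = 7.33e-09). The antisense transcript Kdm6bos shares 4.3% of the exon bases and was not analysed here. Kdm6a, more abundant per kb at 14.1 compared with 5.58 CPM per kb in ControlA, changed by -0.13 ± 0.08 with nApoE4 (edgeR adjusted p = 0.200) and -0.18 ± 0.03 with nApoE3 (edgeR adjusted p = 8.89e-05).

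Kdm7a, which acts on H3K9 and H3K27, was at 9.86, 6.36 and 10.4 CPM in ControlA and at 14.4, 17.3 and 14.7 with nApoE4. In the other experiment it was at 12.2, 12.8 and 12.1 CPM in ControlB and at 15.5 and 16.8 with nApoE3. No treated sample overlapped its own controls, with changes of 0.81 ± 0.17 (edgeR adjusted p = 0.00235) and 0.38 ± 0.05 (edgeR adjusted p = 4.19e-05). The opposite-strand gene 4930599N23Rik, which shares 3% of its exon bases, rose by 0.97 and 1.29.

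The 5 Kmt2 genes, whose family holds the large H3K4 methyltransferases, showed no call with nApoE4 (beside 28.6% of all tested genes in each direction). With nApoE3, Kmt2a, Kmt2b and Kmt2c fell (3 of 5, beside 34.6%). Kmt2c was at 86.9, 54.2 and 99.8 CPM in ControlA and at 59.0, 76.7 and 60.9 with nApoE4, and these groups overlapped through ControlA replicate 2. It was at 84.1, 89.1 and 75.8 CPM in ControlB and at 51.9 and 51.6 with nApoE3, without overlap. The change was -0.29 ± 0.20 with nApoE4 (edgeR adjusted p = 0.236) and -0.69 ± 0.05 with nApoE3 (edgeR adjusted p = 2.21e-07). ControlA replicate 2 was the lowest ControlA sample for all 5 Kmt2 genes, with a median log2 ratio of -0.78 to the other 2, and without it Kmt2c fell by 0.51 with nApoE4 (edgeR adjusted p = 0.000817). Kmt2a and Kmt2b changed by -0.11 ± 0.04 and -0.17 ± 0.03 with nApoE3. Kmt5a, on H4K20, rose by 0.50 ± 0.06 with nApoE4 and 0.35 ± 0.02 with nApoE3.

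The other H4K20 methyltransferases, which newer nomenclature calls Kmt5b and Kmt5c, are listed under the older symbols Suv420h1 and Suv420h2 and so did not meet the symbol rule. Suv420h2 was at 48.96, 48.8 and 52.1 CPM in ControlA, 17.8, 18.6 and 18.5 with nApoE4, 29.7, 31.4 and 30.4 in ControlB and 9.04 and 10.2 with nApoE3. It fell by 1.44 and 1.67 on the log2 scale, more than any Kmt gene that met the rule. Suv420h1 rose by 0.20 with nApoE4 and 0.24 with nApoE3.

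No deacetylase of the Hdac series rose with nApoE4 (beside 28.6% of all tested genes), and Hdac1 alone rose with nApoE3 (beside 33.1%). Of 4 class I, 4 class IIa and 2 class IIb and IV genes tested, 1, 2 and 1 fell with nApoE4 (beside 28.6%). With nApoE3, 2, 3 and 2 of them fell (beside 34.6%). The class IIa enzymes, which shuttle between nucleus and cytoplasm and repress transcription through partner complexes, changed most. Hdac5 was at 131, 119.9 and 138 CPM in ControlA and at 45.6, 49.3 and 46.1 with nApoE4. ControlB samples were at 94.0, 93.6 and 94.0 CPM and the nApoE3 samples at 25.7 and 25.4. Treated samples were well below all controls of either experiment. The change was -1.46 ± 0.07 with nApoE4 (edgeR adjusted p = 1.16e-07) and -1.88 ± 0.03 with nApoE3 (edgeR adjusted p = 1.31e-13), or 2.75-fold and 3.69-fold lower.

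Hdac7 was at 4.37, 2.94 and 3.84 CPM in ControlA and at 0.746, 0.770 and 0.580 with nApoE4, which is 5.27-fold lower (log2 -2.40 ± 0.21, edgeR adjusted p = 6.87e-06). ControlB was at 0.382, 0.630 and 0.550 CPM and the nApoE3 samples were at 0.464 and 0.372, with overlapping groups (log2 -0.31 ± 0.30, edgeR adjusted p = 0.373). The treated cells of the first experiment were near the level at which the untreated cells of the second experiment stood. At this low level the nApoE3 comparison is imprecise.

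Hdac9 showed the reverse pattern. It was at 55.1, 48.6 and 61.2 CPM in ControlA and at 51.2, 52.3 and 49.9 with nApoE4, within the range of the controls (log2 -0.10 ± 0.08, edgeR adjusted p = 0.332). It was at 29.1, 30.7 and 28.5 CPM in ControlB and at 9.71 and 8.06 with nApoE3, a 3.33-fold fall (log2 -1.73 ± 0.07, edgeR adjusted p = 2.49e-10). Without ControlA replicate 2, the nApoE4 change was -0.19 (edgeR adjusted p = 0.0152). Hdac4 changed by -0.12 ± 0.13 with nApoE4 (edgeR adjusted p = 0.468) and fell by 0.53 on the log2 scale with nApoE3. Summed over the 4 class IIa genes, the level per kb was 32.9 CPM in ControlA and 16.9 with nApoE4, and 23.7 in ControlB and 8.35 with nApoE3. Most of this fall was that of Hdac5, at 23.1 CPM per kb in ControlA and 8.36 with nApoE4, and 16.7 in ControlB and 4.55 with nApoE3.

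Class I deacetylases, the core enzymes of nuclear corepressor complexes, changed little. The sum of the 4 was 98.1 CPM per kb in ControlA and 94.7 with nApoE4, and 114 in ControlB and 122 with nApoE3. Hdac1 changed by 0.07 ± 0.07 (edgeR adjusted p = 0.386) and 0.30 ± 0.04 (edgeR adjusted p = 1.75e-05), and Hdac3 fell by 0.25 with nApoE4 and 0.11 with nApoE3. Hdac2 was past the threshold with neither fragment (0.03 ± 0.07 and 0.05 ± 0.02). Hdac8 was at 4.30, 3.39 and 5.01 CPM in ControlA, 4.03, 4.72 and 5.22 with nApoE4, 4.21, 4.75 and 4.60 in ControlB and 3.11 and 3.35 with nApoE3. The nApoE3 samples lay below all their controls (-0.49 ± 0.11, edgeR adjusted p = 0.00164), while the nApoE4 samples overlapped theirs (0.14 ± 0.16, edgeR adjusted p = 0.488).

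Hdac10, a class IIb enzyme that acts on polyamines, was at 32.2, 33.5 and 31.1 CPM in ControlA and at 22.6, 22.8 and 22.8 with nApoE4. It was at 24.9, 23.9 and 22.5 CPM in ControlB and at 14.95 and 15.2 with nApoE3. Neither experiment showed overlap, with changes of -0.50 ± 0.06 (edgeR adjusted p = 6.05e-05) and -0.66 ± 0.05 (edgeR adjusted p = 1.82e-07). Hdac6, a cytoplasmic tubulin deacetylase, changed by -0.12 ± 0.07 with nApoE4 (edgeR adjusted p = 0.173) and -0.28 ± 0.05 with nApoE3 (edgeR adjusted p = 0.000209).

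Within the sirtuins, Sirt3 and Sirt5 fell and Sirt6 rose with both fragments. Sirt3, the main mitochondrial deacetylase, was at 22.7, 20.2 and 24.0 CPM in ControlA and at 11.5, 11.3 and 10.9 with nApoE4. ControlB was at 30.2, 28.3 and 27.3 CPM and the nApoE3 samples at 13.1 and 12.7. Treated samples lay below all controls, with a change of -0.98 ± 0.08 (edgeR adjusted p = 6.05e-06) and -1.16 ± 0.05 (edgeR adjusted p = 1.25e-09). Exons of Psmd13 and Ric8a on the other strand cover 12.4% of the Sirt3 exon bases, and these genes did not fall past the threshold in either experiment (-0.08 and 0.57 with nApoE4, 0.07 and 0.15 with nApoE3).

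Sirt5, which removes succinyl and malonyl groups, was at 16.1, 17.9 and 15.3 CPM in ControlA and at 12.6, 12.2 and 12.2 with nApoE4 (-0.41 ± 0.08, edgeR adjusted p = 0.00172). It was at 6.18, 5.44 and 5.94 CPM in ControlB and at 3.95 and 3.67 with nApoE3 (-0.63 ± 0.10, edgeR adjusted p = 0.000105). Treated samples were below their own controls in both experiments, although the nApoE4 samples were above ControlB. Sirt6, which deacetylates histone H3, was at 20.3, 19.7 and 20.6 CPM in ControlA and at 30.02, 30.1 and 32.3 with nApoE4 (0.61 ± 0.06, edgeR adjusted p = 2.06e-05). It was at 14.4, 13.7 and 14.1 CPM in ControlB and at 19.5 and 20.2 with nApoE3 (0.49 ± 0.05, edgeR adjusted p = 1.04e-06), without overlap in either experiment. Sirt1 passed with neither fragment (-0.13 ± 0.05 and -0.08 ± 0.04), nor did Sirt4 (0.26 ± 0.11 and -0.15 ± 0.07), while Sirt2 rose (0.16 ± 0.04) and Sirt7 fell (-0.52 ± 0.03) with nApoE3.

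**Figure D3:**
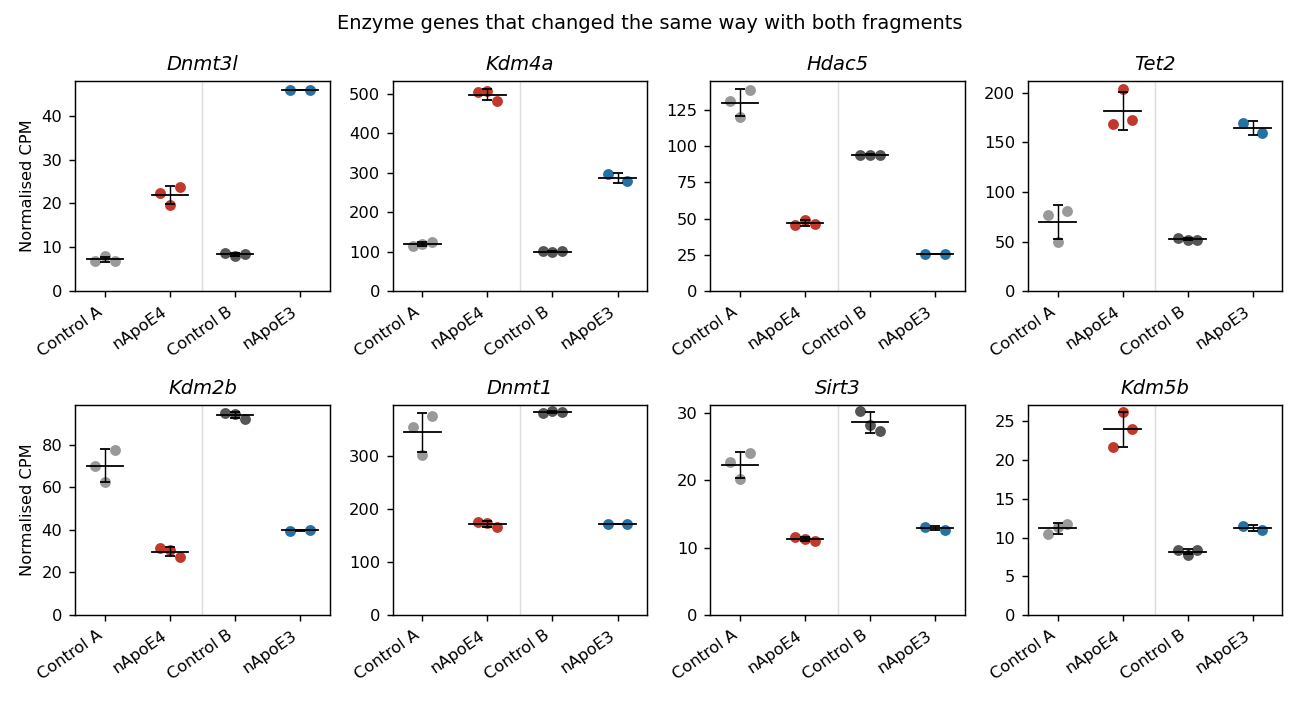
Normalised CPM in each sample (points) with the group mean and SD (bars) for 8 enzyme genes that passed the threshold in the same direction with both fragments. Dnmt3l, Kdm4a, Tet2 and Kdm5b are higher and Hdac5, Kdm2b, Dnmt1 and Sirt3 lower in treated samples, and no treated sample overlaps its own controls.

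Of the 46 enzymes tested in both experiments, 19 passed with both fragments, 9 of them higher and 10 lower, and all 19 changed in the same direction. Among all genes the corresponding share with the same direction was 92.3% (5991 of 6493). Across the 46 enzymes the 2 sets of changes correlated with a Pearson r of 0.745 and a Spearman rho of 0.728 (0.827 and 0.719 across all 13750 genes tested in both), as a description across genes that are not independent replicates. The 2 sets share no samples, although cell line, sequencing and counting were common to both. A further 4 enzymes passed with nApoE4 alone (Hdac7, Kdm3a, Kdm4b and Kdm1a), 16 with nApoE3 alone and 7 with neither. Of all 13750 genes tested in both, 6493 passed with both, 1406 with nApoE4 alone, 3227 with nApoE3 alone and 2624 with neither. The spread between replicates was larger in the nApoE4 experiment, with a biological coefficient of variation of 0.0838 compared with 0.0262.

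The difference between the responses, nApoE4 change minus nApoE3 change, was tested over all 11 samples. It passed for 14 of 47 enzymes (29.8%, beside 28.3% of all tested genes), 9 with a positive difference (19.1%, beside 14.4%) and 5 with a negative one (10.6%, beside 13.9%). Above 1.5-fold, 7 enzymes passed (12.3% of all genes), 3 positive (5.85%) and 4 negative (6.48%), and above 2-fold 3 passed (5.93%), 1 positive (2.58%) and 2 negative (3.35%). Without ControlA replicate 2, 9 enzymes had a negative difference past the threshold, when 2546 of all 15477 tested genes did. All 4 enzymes called with nApoE4 alone were among the 14. Of the 16 called with nApoE3 alone, Hdac8, Hdac9, Kdm1b, Kdm2a and Sirt7 were among them, and the difference of the other 11 did not pass.

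The largest difference was that of Hdac7, at -2.10 ± 0.36 (edgeR adjusted p = 0.000834), followed by Hdac9 at 1.62 ± 0.13 (edgeR adjusted p = 1.28e-06) and Kdm3a at -1.23 ± 0.07 (edgeR adjusted p = 7.39e-08). Kdm4b differed by -0.84 ± 0.10 (edgeR adjusted p = 4.04e-05). Beside these values, the untreated levels also differed, ControlA being 7.24-fold higher than ControlB for Hdac7, 1.89-fold for Hdac9, 1.77-fold for Kdm3a and 1.97-fold for Kdm4b. The part of these starting levels in the differences was not tested.

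Genes that responded in the same direction also differed in size. Dnmt3l rose less with nApoE4 (difference -0.86 ± 0.11, edgeR adjusted p = 9.5e-05), although its untreated levels were not shown to differ (log2 -0.20 ± 0.08, edgeR adjusted p = 0.0592). That control difference passed without ControlA replicate 2 (-0.27, edgeR adjusted p = 0.0108). It also passed with counts thinned to the smallest library (-0.26, edgeR adjusted p = 0.0294) and in 1 fit of all samples (-0.21, edgeR adjusted p = 0.0312). Kdm4a rose more with nApoE4 (0.54 ± 0.07, edgeR adjusted p = 8.75e-05), as did Kdm5b (0.64 ± 0.11, edgeR adjusted p = 0.00104), and Hdac5 fell less (0.41 ± 0.08, edgeR adjusted p = 0.00218). Untreated levels were higher in ControlA than in ControlB for Kdm4a (log2 0.27), Kdm5b (0.47) and Hdac5 (0.48), all past the threshold. Hdac8 passed narrowly at 0.62 ± 0.21 (edgeR adjusted p = 0.0419) and did not pass without any 1 of 8 samples in turn (adjusted p up to 0.144). For Dnmt1 (0.15 ± 0.10), Tet2 (-0.26 ± 0.20), Kdm2b (0.00 ± 0.11) and Sirt3 (0.16 ± 0.10) the difference did not pass, and for Tet2 it was -0.45 without ControlA replicate 2 (edgeR adjusted p = 0.00155). That of Kdm7a (0.42 ± 0.20, edgeR adjusted p = 0.15) was 0.55 without ControlA replicate 3 (edgeR adjusted p = 0.0433).

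**Figure D4:**
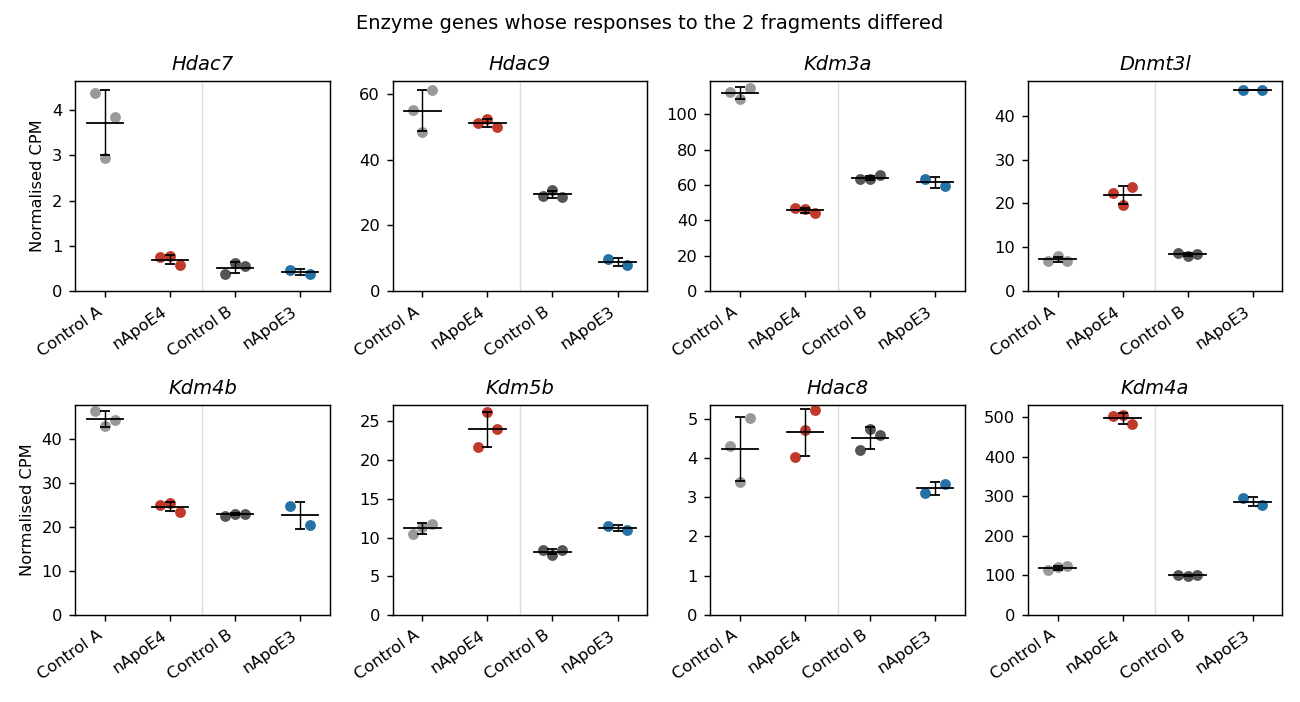
Normalised CPM in each sample (points) with the group mean and SD (bars) for 8 enzyme genes whose responses to the fragments differed past the threshold. Hdac7, Kdm3a and Kdm4b start higher in ControlA than in ControlB and end near or below the ControlB level with nApoE4, while Hdac9 falls with nApoE3.

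Untreated cells of both experiments already differed for 31 of 46 enzymes (67.4%, beside 69.3% of all genes), with 16 higher in ControlA (34.8%, beside 34.9%) and 15 lower (32.6%, beside 34.4%). Above 1.5-fold, 11 differed (36.1% of all genes), 7 higher (21.3%) and 4 lower (14.8%), and above 2-fold 2 were higher (12.5%) and 0 lower (5.4%), beside 17.9% of all genes in either direction. Besides Hdac7, the largest difference was that of Sirt5, 2.84-fold higher in ControlA (log2 1.51 ± 0.08, edgeR adjusted p = 2.4e-06). In the other direction, Hdac2 was lower in ControlA by 0.91 on the log2 scale, Kmt5a by 0.89 and Dnmt3b by 0.80. Experiment, depth and any difference between the cultures vary together here and cannot be told apart.

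Other writers, erasers, readers and complex partners that the symbol rule leaves out were taken from lists of 114 genes, of which 111 were found. With nApoE4, 22 of 108 rose and 34 fell (median -0.08), beside 28.6% of all tested genes in each direction. With nApoE3, 28 of 107 rose and 54 fell (median -0.09), beside 33.1% and 34.6% of all tested genes, and the counts of the lists below stand against the same shares. Of 19 subunits of the deacetylase corepressor complexes, 2 rose and 8 fell with nApoE4 (median -0.22, beside 28.6% in each direction), and 3 rose and 13 fell with nApoE3 (median -0.23, beside 33.1% and 34.6%). Of 13 histone acetyltransferases, the enzymes opposing the deacetylases, 0 rose and 3 fell with nApoE4 (beside 28.6% in each direction), and 3 rose and 6 fell with nApoE3 (beside 33.1% and 34.6%). Among 34 other histone methyltransferases 10 rose and 8 fell with nApoE4, and 12 rose and 14 fell with nApoE3. Of the 17 Polycomb, trithorax and COMPASS partners tested with nApoE4, 3 rose and 6 fell, and of 16 tested with nApoE3, 2 rose and 8 fell. Of 8 tested JmjC proteins outside the Kdm symbols, 1 rose and 3 fell with nApoE4, and 2 rose and 3 fell with nApoE3.

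The readers and partners of DNA methylation held the largest changes, with 6 higher and 6 lower of 17 with nApoE4 and 6 higher and 10 lower with nApoE3. Gadd45a, a stress-induced partner of DNA repair and demethylation, was at 3.90, 4.33 and 3.75 CPM in ControlA and at 47.2, 44.5 and 51.1 with nApoE4. It was at 6.56, 5.06 and 6.17 CPM in ControlB and at 21.1 and 21.98 with nApoE3. The treated samples were well separated from the controls, with changes of 3.58 ± 0.09 (edgeR adjusted p = 1.46e-09) and 1.85 ± 0.08 (edgeR adjusted p = 7.12e-10) and a difference of 1.72 ± 0.14 (edgeR adjusted p = 1.53e-06). The untreated level of Gadd45a was lower in ControlA than in ControlB (log2 -0.56 ± 0.12, edgeR adjusted p = 0.0035). Apobec3, an antiviral restriction factor, rose by 1.67 and 1.28. Uhrf1, which guides Dnmt1 to replicated DNA, changed by -1.04 ± 0.07 and -1.43 ± 0.03, in the direction of Dnmt1. Mbd4, a glycosylase that acts at methylated sites, changed by -1.07 ± 0.08 with nApoE4 and -0.86 ± 0.05 with nApoE3.

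Of the corepressor subunits, Rcor2 and Rcor3 responded differently in the nApoE4 and nApoE3 experiments. Rcor2, a partner of Kdm1a, was at 37.6, 37.2 and 34.0 CPM in ControlA and at 11.1, 10.1 and 10.6 with nApoE4 (-1.77 ± 0.07, edgeR adjusted p = 3.58e-08). In ControlB it was at 30.3, 31.6 and 30.5 CPM and with nApoE3 at 31.8 and 25.4, on either side of the controls (-0.11 ± 0.07, edgeR adjusted p = 0.183). Rcor3 was at 8.08, 6.51 and 8.46 CPM in ControlA and at 7.74, 7.63 and 7.08 with nApoE4, but at 7.28, 8.13 and 7.01 in ControlB and at 3.64 and 2.71 with nApoE3 (-1.24 ± 0.12, edgeR adjusted p = 1.88e-06). The differences between responses were -1.67 ± 0.11 for Rcor2 and 1.19 ± 0.18 for Rcor3 (edgeR adjusted p = 4.29e-07 and 0.000345). The untreated level of Rcor2 was higher in ControlA than in ControlB (log2 0.25 ± 0.06, edgeR adjusted p = 0.00374). That of Rcor3 was not shown to differ (log2 0.06 ± 0.11, edgeR adjusted p = 0.674). Sap30, a subunit of the Sin3 deacetylase complex, rose by 1.10 ± 0.09 with nApoE4 and 0.96 ± 0.04 with nApoE3.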

How the data were processed

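Per the submitters' processing notes, the authors used Trim Galore 0.5.0 for trimming, FastQC 0.11.8 for quality, HISAT2 2.1.0 for mapping to GRCm38.p6 and HTSeq 0.11.0 for counting. The annotation release, strand setting and overlap mode are not given in the sources used here. The deposited values were raw counts per gene, and 5 tallies of uncounted reads were left out of library sizes. Differential expression was computed by edgeR 4.0.16 under R 4.3.3 (filterByExpr, TMM, quasi-likelihood F test, Benjamini-Hochberg adjustment over all genes). Standard errors are the absolute log2 change divided by the square root of F. Depth affects counting error and which genes pass the low-count filter. Exon lengths and overlaps came from GENCODE on GRCm38.p6, matched by symbol. Per-sample values are given for the 20 genes past an adjusted p of 0.05 with more than 1.5-fold change with either fragment, or in their difference. Other chromatin genes were named by the 3 largest changes in each direction at a mean of at least 1 CPM. One gene that met this rule is not reported here. The fits were tested on simulated data. Alternatives were DESeq2 1.42.0, its size factors, library size alone, 2 count filters, 1 fit of all samples, thinning, a replicate block, a 2-fold limit and leaving out each replicate. The genes, lists and tests were chosen with earlier results of these data known.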

Additional observations from a re-analysis of the deposited data

Results flagged for a closer look

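The difference of the responses (nApoE4 log2 change minus nApoE3 log2 change) passed the edgeR test of the difference itself for 14 of the 47 enzymes and for 5 other chromatin genes named in the report. Among the deacetylases it was -2.10 for Hdac7, 1.62 for Hdac9, 0.62 for Hdac8 and 0.41 for Hdac5. Among the demethylases it was -1.23 for Kdm3a, -0.84 for Kdm4b, 0.64 for Kdm5b, 0.54 for Kdm4a, 0.38 for Kdm1b, 0.31 for Kdm1a and -0.29 for Kdm2a. For Dnmt3l it was -0.86. The sirtuins Sirt4 and Sirt7 had differences of 0.40 and 0.35 (edgeR adjusted p = 0.0400 and 0.00345), and neither was past the threshold with nApoE4. Of the other chromatin genes, Gadd45a had 1.72, Rcor2 -1.67, Rcor3 1.19, Uhrf1 0.38 and Apobec3 0.38. Each fragment was used in 1 experiment, and in these values its effect cannot be told apart from that experiment. The groups held 2 or 3 samples, too few to test a single sample as an outlier.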

How the results depend on the processing

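Every one of the 16 calls among the named enzymes with nApoE4 passed in the same direction under each alternative that gave a value, as did 16 of 17 with nApoE3 (the exception was Tet1), 8 of 9 differences (the exception was Hdac8, which also missed the threshold with thinned counts at an adjusted p of 0.0739) and 13 of 15 control differences (the exceptions were Tet2 and Kdm7a). Requiring a fold change above 2 left 4 enzymes higher and 5 lower with nApoE4, and 4 (Tet1 among them) and 5 with nApoE3. It left 1 positive and 2 negative differences, and 2 higher and 0 lower in ControlA. Leaving out replicates moved the count of negative differences from 5 to between 4 and 9, the highest without ControlA replicate 2. Among all tested genes that count was 2123 of 15287 as reported and 2546 of 15477 without ControlA replicate 2. Leaving out an nApoE3 sample left a lone sample that was assumed to vary like the others.

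Signs changed only for results that were not past the threshold as reported. With single replicates left out, the change of Hdac8 with nApoE4 was -0.0039 (without ControlA replicate 2) to 0.28, and that of Kdm4b with nApoE3 was -0.17 (without nApoE3 replicate 1) to 0.11 (without nApoE3 replicate 2). The difference of Kdm6b was -0.23 to 0.086 (without ControlA replicate 3), and 0.0037 without nApoE4 replicate 1. That of Kdm2b was -0.0019 by DESeq2, -0.0035 with its size factors, -0.018 with thinned counts and between -0.073 and 0.085 with single replicates left out (-0.041 without nApoE4 replicate 1, -0.0059 and -0.0011 without ControlB replicates 1 and 2, -0.0046 without nApoE3 replicate 1). Between controls, Hdac8 was at -0.22 to 0.060 (without ControlA replicate 2), and Kmt2c was at 0.018 with library size alone, at -0.22 without ControlA replicate 3, 0.18 without ControlA replicate 2 (edgeR adjusted p = 0.0284) and 0.010 without ControlB replicate 2. The causes were not tested.

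Library size alone moved the median change of all genes by -0.132 with nApoE3, and the share of calls that were higher from 48.9% to 34.6% (from 49.9% to 39.9% with nApoE4). Under that scaling, Kdm3a and Kdm4b with nApoE3 were at -0.20 and -0.15 and passed (edgeR adjusted p = 0.000224 and 0.0473), the shift of all genes included. Pairing by replicate number was examined through each sample's deviations from its group mean, correlated between treated and control samples. Same-numbered samples had correlations of -0.127 to -0.0089, and 0 of 5 treated samples correlated best with their own number. Samples with different numbers had correlations of -0.0626 to 0.0989. The deviations of the nApoE3 samples were mirror images, so the 5 samples were not separate tests. Correlations this near 0 cannot decide whether the samples were paired. A replicate block reduced the differences called among all genes from 4331 to 1150 positive and 1157 negative, and the difference of Hdac8 was 0.61 under the block (edgeR adjusted p = 0.0898). Depth limits Tet1, Hdac11, Kdm4d and, in the nApoE3 experiment, Hdac7.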
